A study of Mus musculus with 8 samples.

Results

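The genes that carry cells from G1 into S phase and copy their DNA were followed in normal and leukaemic blood-forming cells of mice. The set was a list of 43 gene symbols, from G1 cyclins to chromatin assembly factors. Of these, 42 were measured by a probe set annotated to that symbol alone, out of 12393 genes measured in all, and Chaf1a was not analysed here. Where a gene had several probe sets, the brightest by its mean over the 8 arrays stood for it. The list is one of symbols and uses no threshold on the values, and it was drawn up with earlier results of these data known.

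RNA was measured on Affymetrix 3′ expression arrays. Normal LSK cells, the marrow fraction without lineage markers that carries Sca1 and Kit, came from 12-week-old wild-type C57/BL6 mice (3 arrays). Leukaemia-initiating cells (LICs) carried the same surface markers plus GFP and were sorted from a retroviral mouse model of chronic myeloid leukaemia (CML), 14 days after bone marrow transplantation. They were wild type (WT LICs, 3 arrays) or Ezh2 knockout (Ezh2 KO LICs, 2 arrays), and the labels give the same strain and age for all groups. Both kinds of LIC thus shared transplantation, retroviral infection and GFP, which the LSK cells lacked. The sources used here name neither the retroviral oncogene nor the way Ezh2 was deleted, and they do not say which sex the mice were or whether animals were pooled. The labels call the repeats biological, without naming the animals. Replicates are listed in the order 1 to 3, and every level is a log2 intensity.

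A cell enters S phase when cyclin D with Cdk4 or Cdk6, and then cyclin E with Cdk2, phosphorylate the retinoblastoma family and release E2F transcription factors. E2F then drives genes for the replication machinery, many of which are members here. During G1 the origin recognition complex, Cdc6 and Cdt1 load the Mcm2-7 helicase onto origins. In S phase Cdc45 and the GINS complex activate that helicase, and polymerases follow with the sliding clamp Pcna. Most stem cells in adult marrow are quiescent, while progenitors in the LSK fraction divide.

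Array medians lay between 6.42 and 6.57. Ezh2, the histone methyltransferase of Polycomb repressive complex 2, was at 8.94 and 9.55 on the Ezh2 KO arrays, and at 10.77 or more on each of the others (fall of 2.10 against WT LICs: limma log2 difference -2.10, SE 0.21, adjusted p = 0.00985). Kit, a marker of the gate, averaged 10.95, 9.77 and 10.17 in LSK cells, WT LICs and Ezh2 KO LICs and was called lower in both kinds of LIC than in LSK cells, and Ly6a, which encodes Sca1, was not analysed here. Of the other 3 measured markers of stem and progenitor cells, in the same order, Flt3 averaged 10.56, 8.64 and 9.02, Cd34 12.26, 11.94 and 12.07 and Slamf1 8.08, 7.45 and 7.10, with none called. Markers of other cells also differed, between groups or between arrays of a group. The summed level of 5 measured erythroid markers ran from 8.89 to 9.12 in LSK cells, from 7.29 to 11.57 in WT LICs and from 8.58 to 9.08 in Ezh2 KO LICs, with none called. The haemoglobin gene Hba-a1 was at or below 2.98 on every array, under the background level of 4.01 described below. Of 8 measured B cell precursor markers, 3 were called higher in Ezh2 KO LICs than in WT LICs and 4 higher than in LSK cells. The summed level of the 8 was 12.54 to 12.88 in LSK cells, 10.25 to 12.40 in WT LICs, and 13.05 and 13.49 in Ezh2 KO LICs. Dntt, the brightest of them in each group, averaged 12.42, 10.54 and 11.95 in the same order. The means of Igll1 were 4.38, 5.61 and 10.83, of Rag1 4.72, 3.98 and 9.25 and of Vpreb1 6.58, 6.80 and 10.65. Those of Ebf1 were 4.64, 5.16 and 9.02, of Cd79a 4.73, 4.80 and 8.49 and of Cd79b 9.57, 8.67 and 9.85. Pax5 was at or below 2.78 on every array, under the background level of 4.01 described below, so its probe set could not show a difference. The summed level of 6 measured markers of antibody-secreting cells was 11.75 to 12.24 in LSK cells, 10.26 to 10.56 in WT LICs and 10.48 to 10.88 in Ezh2 KO LICs. Against LSK cells, Jchain was called lower in WT LICs, and 2 of the 6 markers were called lower in Ezh2 KO LICs. Jchain averaged 10.89, 5.12 and 4.23 in LSK cells, WT LICs and Ezh2 KO LICs. The summed level of 4 measured monocyte markers was 11.72 to 11.86 in LSK cells, 9.99 to 11.06 in WT LICs and 10.35 to 10.59 in Ezh2 KO LICs, with Lyz2 called lower in both kinds of LIC. That of 5 T cell markers was 6.46 to 7.99, 8.25 to 9.03 and 8.39 to 8.48 in the same order, with none called. That of 8 granulocyte markers was 13.25 to 13.44, 13.35 to 13.55 and 12.65 to 13.40, also with none called. The part of these cells in the results below was not tested. In RNA of sorted populations, a larger share of cycling cells and more RNA per cell cannot be told apart. The 3′ minus 5′ signal of Actb, a sign of RNA integrity, ranged from 0.76 to 0.97 in LSK cells, 0.73 to 1.00 in WT LICs and 0.79 to 0.91 in Ezh2 KO LICs, so the groups overlapped. For Gapdh it ranged from 0.66 to 0.96, 0.72 to 0.82 and 0.69 to 0.70 in the same order. There the Ezh2 KO arrays lay within the range of LSK cells and just below the WT LIC arrays.

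Members were mostly bright. Their means over the 8 arrays ran from 5.68 for Tyms to 12.86 for Fen1, with a median of 10.41, and 39 of 42 exceeded 7.16, the median of all genes. The lowest member value on any array was 4.74, above the background level of 4.01 taken from unspiked bacterial control probe sets. All 42 were therefore measured in each group.

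Leukaemic cells with Ezh2 were first set against their normal counterparts. The RNA of Orc1, Exo1, Ccne1 and Mcm10 was 2.10-fold to 3.90-fold higher in WT LICs. Of 42 members, 4 rose, none fell and 38 did not pass, where 1.27% of all genes were called higher, 2.15% lower and 3.42% either way (limma, Benjamini-Hochberg adjusted p under 0.05 over 12393 genes). The median log2 difference of the members was 0.19 against 0.02 for all genes, and 35 of 42 differences were positive against 52.2% of all genes. Arrays of the groups did not overlap for 16 members that were higher and 1 that was lower in WT LICs, where the shares over all genes were 13.5% and 13.2%. The same 4 members differed by 1 or more without overlap, as did 6.64% of all genes, and 11 members (26.2%) had an unadjusted p under 0.05, as did 20.6% of all genes.

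Orc1, the largest subunit of the origin recognition complex, was at 6.38, 5.80 and 6.09 on the LSK arrays and at 7.79, 7.73 and 7.73 on the WT LIC arrays. Its lowest WT LIC value stood above the highest LSK value, and the WT LIC arrays hardly differed among themselves (7.75 ± 0.03 against 6.09 ± 0.29, SD, n = 3 each). Orc1 rose 1.66 on the log2 scale, or 3.16-fold (SE 0.17, adjusted p = 0.00475). Exo1, a 5′ to 3′ exonuclease of mismatch repair and DNA end resection, was at 8.69, 8.56 and 8.52 in LSK cells and at 9.61, 9.72 and 9.79 in WT LICs. It rose 1.12, or 2.17-fold (SE 0.13, adjusted p = 0.00658), and its groups lay far apart relative to their spread (8.59 ± 0.09 and 9.71 ± 0.09, SD, n = 3 each). Orc1 and Exo1 kept their call in this comparison under each of the 18 alternatives run.

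Ccne1, which encodes cyclin E1, the partner of Cdk2 at the G1/S transition, was at 7.33, 7.34 and 6.95 in LSK cells and at 9.87, 9.20 and 8.43 in WT LICs. All WT LIC arrays stood above all LSK arrays, but they spread over more than 1 log2 unit (9.17 ± 0.72 against 7.21 ± 0.22, SD, n = 3 each). The rise of 1.96, or 3.90-fold, had an SE of 0.37 and an adjusted p of 0.0371. The erythroid regulator Klf1 was high on the same WT LIC arrays on which Ccne1 was highest, at 10.78, 9.81 and 4.89 on WT LIC replicates 1, 2 and 3 against 7.23 to 7.82 in LSK cells, and its part in the difference was not tested. Among the other called members, Mcm10 also fell from WT LIC replicate 1 to 3, Exo1 rose and Orc1 hardly changed. Some uncalled members, such as Cdc45, Cdc6, Cdt1 and Rrm1, fell in that order too, while others, such as Mcm3 and Mcm4, rose. For these members the part of erythroid cells was not tested either. Ccne1 lost its call when any 1 LSK array, WT LIC replicate 1 or 2, or either Ezh2 KO array was left out (adjusted p between 0.0131 and 0.113 over the alternatives).

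Mcm10, which binds the helicase and helps start unwinding at origins, was at 8.62, 8.07 and 8.67 in LSK cells and at 9.78, 9.41 and 9.37 in WT LICs. These groups did not overlap either (8.45 ± 0.33 and 9.52 ± 0.23, SD, n = 3 each). Mcm10 rose 1.07, or 2.10-fold (SE 0.22, adjusted p = 0.0461), close to the threshold, and lost its call when any 1 of the 8 arrays was left out (adjusted p up to 0.131). Cdc45, its partner in helicase activation, was at 9.11, 8.24 and 8.78 in LSK cells and at 9.91, 9.61 and 9.46 in WT LICs. The arrays did not overlap, but the difference of 0.95 (SE 0.24) did not pass the test (adjusted p = 0.0772).

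**Figure D1:**
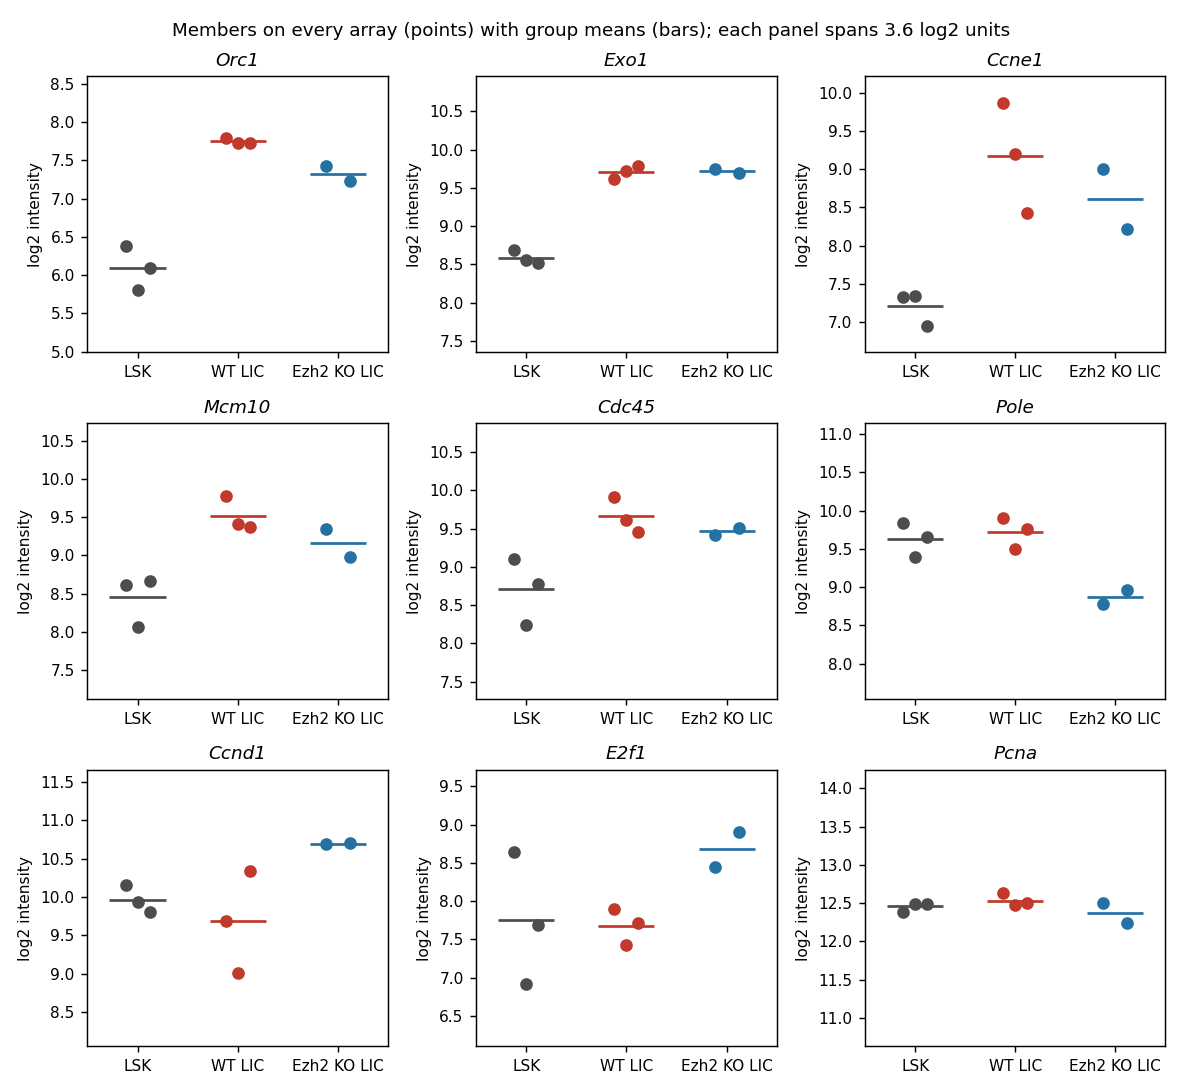
Log2 intensity (y axis, each panel spanning the same range) of 9 members in LSK cells, WT LICs and Ezh2 KO LICs (x axis), with a point for each array and a bar at each group mean. For Orc1, Exo1, Ccne1, Mcm10 and Cdc45 the arrays of both kinds of LIC lie above the LSK arrays, although Cdc45 passed the test in neither and Ccne1 and Mcm10 passed in WT LICs alone; Pole is lower and Ccnd1 higher on the 2 Ezh2 KO arrays than on any other, and Pcna hardly differs.

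Promoter windows are shown for the 3 of these 4 risen genes that the RefSeq table holds, because E2F words are the shared feature that this set of genes is known for. Mcm6, whose window held the most E2F words and whose level hardly moved, is shown for contrast. Each window runs from 250 bases before to 50 bases after an annotated start in build GRCm38.p6, and is read 5′ to 3′ on the gene's own strand. Capitals mark the E2F words TTTCCCGC, TTTCGCGC, TTTGCCGC and TTTGGCGC and the word CCAAT, on either strand, so that a word of the opposite strand appears as its reverse complement.
Orc1, chr4:108579204-108579503, plus strand: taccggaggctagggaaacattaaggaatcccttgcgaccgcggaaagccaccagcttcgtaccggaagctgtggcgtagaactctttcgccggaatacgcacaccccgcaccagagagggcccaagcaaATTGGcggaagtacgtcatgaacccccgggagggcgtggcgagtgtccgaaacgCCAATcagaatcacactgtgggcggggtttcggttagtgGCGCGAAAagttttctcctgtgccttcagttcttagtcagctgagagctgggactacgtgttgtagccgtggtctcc
Mcm10, chr2:5012742-5013041, minus strand: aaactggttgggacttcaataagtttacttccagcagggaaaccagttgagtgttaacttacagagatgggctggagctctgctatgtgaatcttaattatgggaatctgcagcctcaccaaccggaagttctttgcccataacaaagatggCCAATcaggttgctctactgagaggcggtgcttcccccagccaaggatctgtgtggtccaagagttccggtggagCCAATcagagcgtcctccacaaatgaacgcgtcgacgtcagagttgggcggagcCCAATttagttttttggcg
Ccne1, chr7:38107441-38107740, minus strand: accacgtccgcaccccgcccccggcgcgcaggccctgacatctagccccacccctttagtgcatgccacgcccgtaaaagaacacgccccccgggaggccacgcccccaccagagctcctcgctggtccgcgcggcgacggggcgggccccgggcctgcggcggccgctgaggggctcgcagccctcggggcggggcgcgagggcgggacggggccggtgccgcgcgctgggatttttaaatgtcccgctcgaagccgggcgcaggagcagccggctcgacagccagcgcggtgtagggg
Mcm6, chr1:128359656-128359955, minus strand: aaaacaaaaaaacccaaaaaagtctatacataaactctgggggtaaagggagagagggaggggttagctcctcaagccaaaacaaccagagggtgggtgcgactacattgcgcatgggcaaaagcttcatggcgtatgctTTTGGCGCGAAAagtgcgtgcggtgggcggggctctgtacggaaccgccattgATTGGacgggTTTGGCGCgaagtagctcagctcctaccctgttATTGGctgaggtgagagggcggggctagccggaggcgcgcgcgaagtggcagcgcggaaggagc

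The Orc1 window held 1 E2F word, beginning 27 bases before the start, and 2 CCAAT words. In Mcm6 there were 3 E2F words, of which a pair overlap at 110 and 106 bases before the start and the other begins at 47. The Mcm10 window held 3 CCAAT words and none of the E2F words searched, and the Ccne1 window held neither, which says only that these letters are not in these windows. Of 33 measured members with a window, 12 held an E2F word (36.4%), against 2.6% of the 27025 genes in the table and 1 of 33 G2 and mitosis genes. By window, 2.26% of all 32851 held an E2F word and 37.4% held CCAAT. Among members, 20 of 33 held CCAAT in at least 1 window (60.6%) against 41.1% of genes. The word TTTGAA, the core of the element known from G2 and mitosis promoters, was in 3 of 33 members, 21 of 33 G2 and mitosis genes and 20.2% of all genes (17.9% of all windows).

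Among the G1 cyclins and kinases, Ccne1 alone of 9 rose. None of the D cyclins, which answer growth factor signals, was called, and their difference from Ccne1 was not tested. Ccnd1 was at 10.15, 9.93 and 9.80 in LSK cells and at 9.69, 9.01 and 10.34 in WT LICs, and its groups overlapped (difference -0.28, adjusted p = 0.671). Ccnd2, the brightest of the 3, was at 11.97, 12.02 and 12.07 in LSK cells and at 11.79, 11.87 and 11.88 in WT LICs. Those arrays did not overlap, yet the difference of -0.17 did not pass (SE 0.12, adjusted p = 0.459). Ccnd3 averaged 9.30 in LSK cells and 9.38 in WT LICs. Their kinase Cdk4 averaged 11.82 and 11.92, and Cdk6 6.64 and 7.07, in LSK cells and WT LICs. Cdk2 was at 8.88, 9.26 and 9.16 in LSK cells and at 8.96, 8.80 and 9.26 in WT LICs, so the kinase that cyclin E1 binds showed no difference beyond its spread. Ccne2, which encodes cyclin E2, differed by 0.57 (adjusted p = 0.342), and the transcription factor gene E2f1 by -0.07 (adjusted p = 0.95).

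All 5 origin licensing genes had positive differences, with a median of 0.43, but Orc1 alone passed. Cdc6, which recruits the helicase to origins, averaged 8.85 in LSK cells and 9.46 in WT LICs (difference 0.62, adjusted p = 0.189). Cdt1, its partner in loading, was at 10.69, 10.87 and 11.04 in LSK cells and at 11.46, 11.24 and 11.18 in WT LICs, without overlap (difference 0.43, adjusted p = 0.173). Geminin, the inhibitor of Cdt1 encoded by Gmnn, differed by 0.27, and Orc6 by 0.31. In the helicase group 9 of 9 differences were positive, with a median of 0.19. The 6 subunits of the Mcm2-7 ring ranged from 0.01 for Mcm6 to 0.29 for Mcm5, with Mcm2 at 0.13, Mcm3 at 0.19, Mcm4 at 0.18 and Mcm7 at 0.17. None of them passed, and the difference between the ring genes and Mcm10 was not tested. Gins1, a subunit of the GINS complex, differed by 0.39 (adjusted p = 0.447).

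At the fork itself no gene of the clamp, loader, polymerase and primase group was called. Pcna, the sliding clamp, averaged 12.45 in LSK cells and 12.54 in WT LICs, a difference of 0.08 with a 95% interval from -0.23 to 0.39. Of the clamp loader genes, Rfc5 and Rfc4 differed by 0.41 and 0.51 (adjusted p = 0.129 and 0.214), Rfc3 by 0.05 and Rfc2 by -0.09. Rfc2 was at 11.63, 11.45 and 11.45 in LSK cells and at 11.38, 11.30 and 11.59 in WT LICs. The differences of Pola1, the catalytic subunit of polymerase alpha, of Pole, that of polymerase epsilon, and of the primase gene Prim1 were 0.20, 0.09 and 0.04. Behind the fork, the flap endonuclease gene Fen1 differed by 0.17 and the DNA ligase gene Lig1 by 0.25. Brca1, of homologous recombination, differed by 0.32 with an SE of 0.36. Exo1 was thus the single called gene of its group of 4.

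Nucleotide supply genes had a median of 0.47 over 4, with none called. Rrm1, the large subunit of ribonucleotide reductase, was at 10.52, 10.67 and 10.52 in LSK cells and at 11.29, 11.01 and 10.85 in WT LICs, without overlap (difference 0.48, adjusted p = 0.133). The small subunit gene Rrm2 was at 11.85, 11.38 and 11.58 and at 11.89, 12.09 and 12.32, also without overlap (difference 0.49, adjusted p = 0.176). Thymidine kinase 1, encoded by Tk1, averaged 10.01 and 10.48. Tyms, for thymidylate synthase, was the dimmest member, at 5.89, 5.29 and 6.78 in LSK cells and 5.30, 6.28 and 5.96 in WT LICs. Slbp, which binds histone mRNA, and Uhrf1, which guides maintenance DNA methylation, differed by 0.09 and 0.11. Chaf1b, a subunit of chromatin assembly factor 1, was at 10.21, 9.88 and 9.71 in LSK cells and at 10.21, 9.87 and 9.04 in WT LICs, with overlap.

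**Figure D2:**
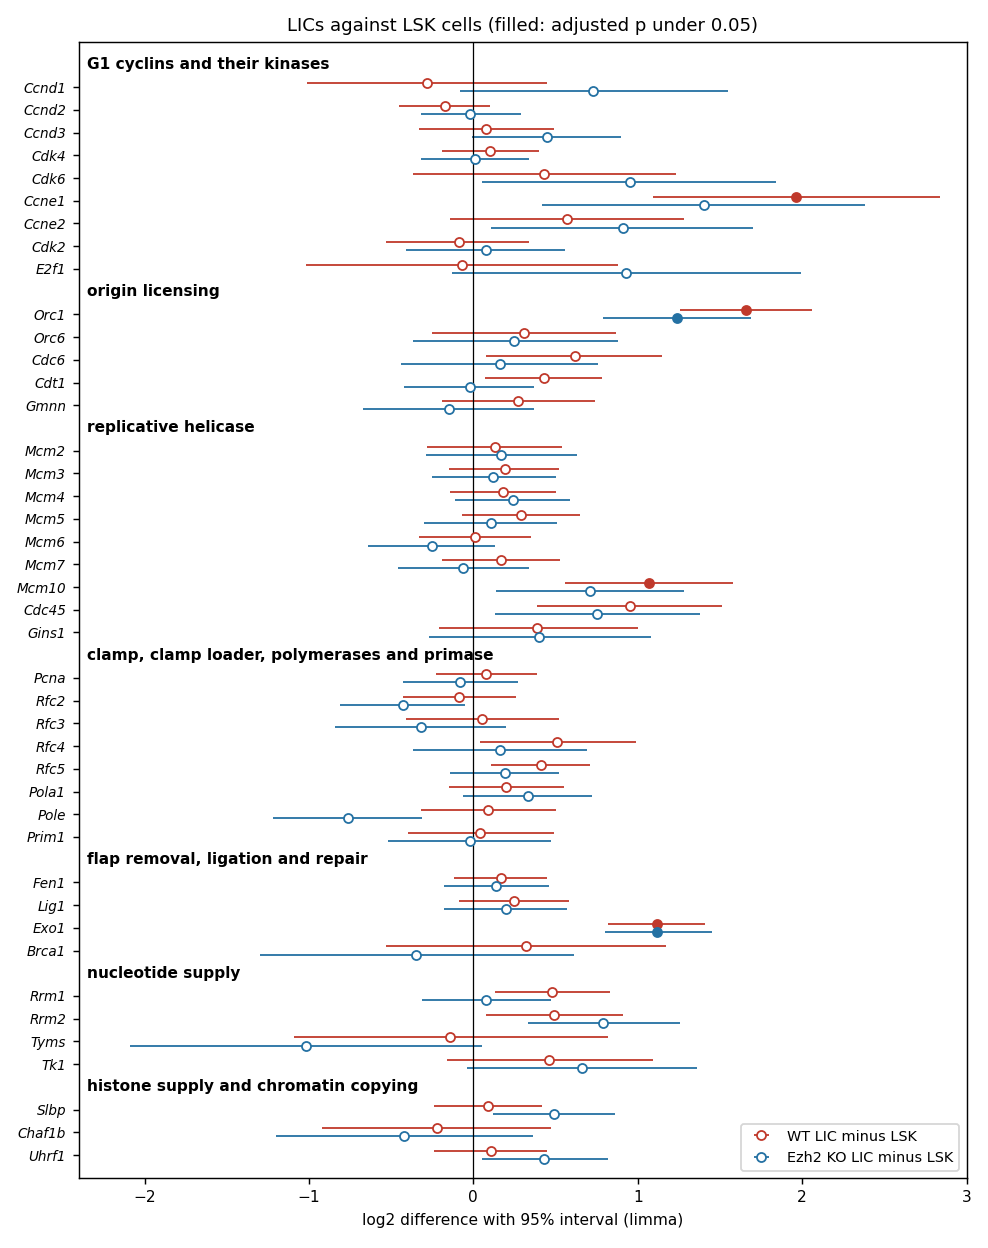
Log2 difference from LSK cells (x axis) for each member (rows, by role), in WT LICs (red) and Ezh2 KO LICs (blue), with 95% intervals from limma and filled points where the adjusted p was under 0.05. Filled points are Orc1, Exo1, Ccne1 and Mcm10 for WT LICs and Orc1 and Exo1 for Ezh2 KO LICs. The comparisons share the 3 LSK arrays.

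The second comparison asked what differed between LICs without Ezh2 and WT LICs. No member passed the test: 0 of 42 were called with limma, where 0.637% of all genes were called, 0.589% higher and 0.0484% lower in Ezh2 KO LICs. At an unadjusted p under 0.05 there were 5 members, or 11.9%, against 11.1% of all genes. Ccnd1 was the 1 member that differed by 1 or more with arrays that did not overlap, which held for 4.7% of all genes. The median difference was -0.08 against -0.05 for all genes, and 26 of 42 differences, or 61.9%, were negative against 56.7% of all genes, so neither stood far from the background. Arrays did not overlap for 7 members that were higher and 12 that were lower in Ezh2 KO LICs, where the shares over all genes were 13.2% and 16.6%. By role, G1 cyclins and kinases had a median of 0.34 with 7 of 9 positive, whereas origin licensing genes had a median of -0.42 with 5 of 5 negative, and clamp, loader, polymerase and primase genes -0.28 with 7 of 8 negative. These counts of few genes are a description beside the same 56.7%.

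Pole was the member with the smallest p. It was at 9.84, 9.40 and 9.66 in LSK cells, at 9.90, 9.50 and 9.76 in WT LICs and at 8.78 and 8.96 in Ezh2 KO LICs, so both knockout arrays stood below every other array. The difference from WT LICs was -0.85 (SE 0.20, unadjusted p = 0.00289, adjusted p = 0.166). Of the loading factors, Cdt1 was at 10.78 and 10.91 in Ezh2 KO LICs, below all WT LIC arrays and within the range of LSK cells (difference -0.45, adjusted p = 0.396). Orc1 was at 7.42 and 7.23, below all WT LIC arrays and above all LSK arrays (difference -0.42, adjusted p = 0.47). Rrm1, at 10.66 and 10.64, likewise lay under every WT LIC array (difference -0.40, adjusted p = 0.443), as did Rfc2 at 11.20 and 10.96 (difference -0.35, adjusted p = 0.48). The replication genes lowest relative to their error therefore include 1 polymerase, 2 licensing factors, 1 clamp loader and 1 reductase subunit, none of which passed.

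At the upper end, Ccnd1 was at 10.69 and 10.70 in Ezh2 KO LICs, above each of the other 6 arrays. Its difference from WT LICs was 1.02 (SE 0.35, adjusted p = 0.354), with a 95% interval from 0.20 to 1.83. E2f1 was at 8.64, 6.92 and 7.69 in LSK cells, at 7.90, 7.43 and 7.71 in WT LICs and at 8.45 and 8.90 in Ezh2 KO LICs. The knockout arrays stood above the WT LIC arrays but not above LSK replicate 1 (difference 1.00, SE 0.45, adjusted p = 0.47). Before rounding, this difference was just under 1 (1.99-fold), so E2f1 is not counted with Ccnd1 above. The other probe set of E2f1, which is dimmer, differed by -0.54, while the 2 dimmer probe sets of Ccnd1 differed by 0.35 and 0.38.

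Ccnd3 was at 9.39, 9.45 and 9.06 in LSK cells, at 9.40, 9.23 and 9.52 in WT LICs and at 9.56 and 9.93 in Ezh2 KO LICs (difference 0.37, adjusted p = 0.529). Slbp was at 11.64, 11.33 and 11.50, at 11.45, 11.60 and 11.70, and at 11.95 and 12.01 in the same order (difference 0.40, adjusted p = 0.412). Uhrf1 was at 12.32, 12.16 and 12.06, at 12.08, 12.35 and 12.41, and at 12.57 and 12.65 (difference 0.33, adjusted p = 0.506). For each of these 3 the knockout arrays were the highest of the 8. The summed level of B cell precursor markers was also highest on the Ezh2 KO arrays, as given above, and its part in these differences was not tested. Exo1 hardly moved: it was at 9.75 and 9.69 in Ezh2 KO LICs, a difference of 0.01 with a 95% interval from -0.32 to 0.34. For Ccne1, at 8.61 ± 0.55 (SD, n = 2) in Ezh2 KO LICs, the interval from -1.54 to 0.42 was too wide to tell a fall from no change.

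**Figure D3:**
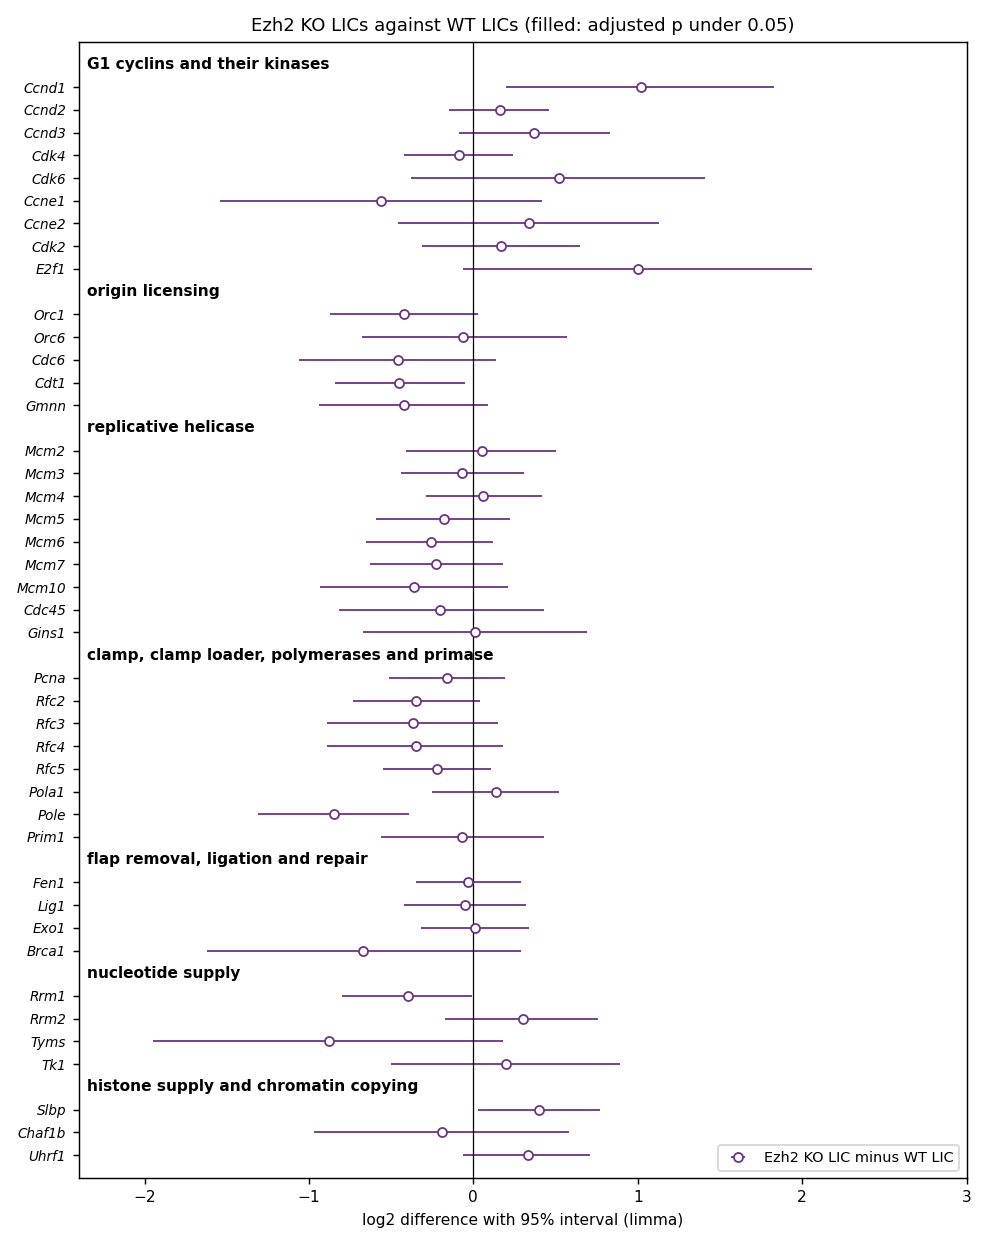
Log2 difference between Ezh2 KO and WT LICs (x axis) for each member (rows, by role), with 95% intervals from limma. No point is filled, since no adjusted p was under 0.05: Pole, at -0.85, and Ccnd1, at 1.02, lie farthest from 0 relative to their error at the lower and upper end.

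Set against LSK cells, Ezh2 KO LICs had higher RNA of Exo1 and Orc1. Of 42 members, 2 rose, none fell and 40 did not pass, where 1.61% of all genes were called higher and 1.86% lower (3.47% either way). This comparison shares its LSK arrays with the first and its knockout arrays with the second. Exo1 rose 1.12 (SE 0.14, adjusted p = 0.0108) and Orc1 1.24 (SE 0.19, adjusted p = 0.0214). Exo1 lost its call without either Ezh2 KO array (adjusted p = 0.0627 without replicate 1 and 0.06 without replicate 2), with the repeat number as a block (0.0606) and with the mean of all its probe sets (0.0718). Orc1 lost its call without LSK replicate 3 (adjusted p = 0.0577), without Ezh2 KO replicate 1 (0.113) or 2 (0.0842), in a fit of the compared groups alone (0.0556) and with the block (0.0608). The median of all members was 0.17 against -0.02 for all genes, and 29 of 42 differences were positive against 47.2% of all genes.

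Arrays did not overlap for 17 members that were higher in Ezh2 KO LICs and 5 that were lower, with background shares of 18.2% and 20.5%. An unadjusted p under 0.05 was reached by 12 members (28.6%) and 19.2% of all genes. A difference of 1 or more without overlap was found for 4 members, namely Ccne1, Orc1, Exo1 and, on the lower side, Tyms, and for 9.21% of all genes. Rrm2 was at 12.35 and 12.44 in Ezh2 KO LICs, above all LSK arrays (difference 0.79, SE 0.20, adjusted p = 0.0776). Ccne1 differed by 1.40 (SE 0.42, adjusted p = 0.121), Ccne2 by 0.91 (0.197), Cdk6 by 0.95 (0.231) and Mcm10 by 0.71 (0.164), the values in brackets being adjusted p-values. Those genes were thus higher on average without passing. On the lower side, Pole differed by -0.76 (SE 0.20, adjusted p = 0.0827) and Rfc2 by -0.43 (adjusted p = 0.202). Tyms, at 5.19 and 4.74 in Ezh2 KO LICs, differed by -1.02 with an SE of 0.46 (adjusted p = 0.283). Mcm6 was at 11.86, 12.12 and 12.10 in LSK cells, at 12.14, 11.85 and 12.13 in WT LICs and at 11.80 and 11.76 in Ezh2 KO LICs. Rfc3 was at 9.05, 9.39 and 9.33, at 9.25, 9.52 and 9.17, and at 9.23 and 8.65 in the same order. Neither passed (difference -0.25 and -0.32, adjusted p = 0.46 and 0.49).

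Across the 3 groups, 23 of 42 members had their highest mean in WT LICs, 15 in Ezh2 KO LICs and 4 in LSK cells, or 54.8%, 35.7% and 9.52%. Over all genes the shares were 35.4%, 28.3% and 36.3%. The Ezh2 KO mean lay between the other means for 35.7% of members and for 33.9% of all genes, so an intermediate knockout level was about as common among members as elsewhere. Within groups, the pooled SD of a member ranged from 0.05 for Ccnd2 to 0.59 for Tyms. Its median was 0.20, against 0.26 for all genes. Fen1, Exo1, Rfc5 and Cdk4 were also steady, at 0.07 to 0.09, while E2f1 and Ccne1 varied by 0.58 and 0.53.

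Over the 8 arrays, Mcm10, Cdc45 and Orc1 followed the mean of the other members most closely (r = 0.98, 0.97 and 0.96 as a description). These points are 3 groups of arrays and share them with the differences above. Ccnd2, by its brightest probe set, ran against the mean of the other members, with r = -0.77. The 7 probe sets of Ccnd2 disagreed, however. They differed by -0.28 to 0.10 between WT LICs and LSK cells and by -0.40 to 0.71 between Ezh2 KO and WT LICs. As the median over members of the value minus each gene's own mean, the set stood at -0.13, -0.15 and -0.14 on the LSK arrays, at 0.19, 0.06 and 0.08 on the WT LIC arrays, and at 0.04 and -0.01 on the Ezh2 KO arrays. Each LIC array was above each LSK array, by little. For G1 cyclins and kinases the order was another: the Ezh2 KO arrays were highest, at 0.27 and 0.49, and WT LICs, at -0.05, -0.22 and 0.08, overlapped the LSK arrays at -0.08, -0.11 and -0.08.

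**Figure D4:**
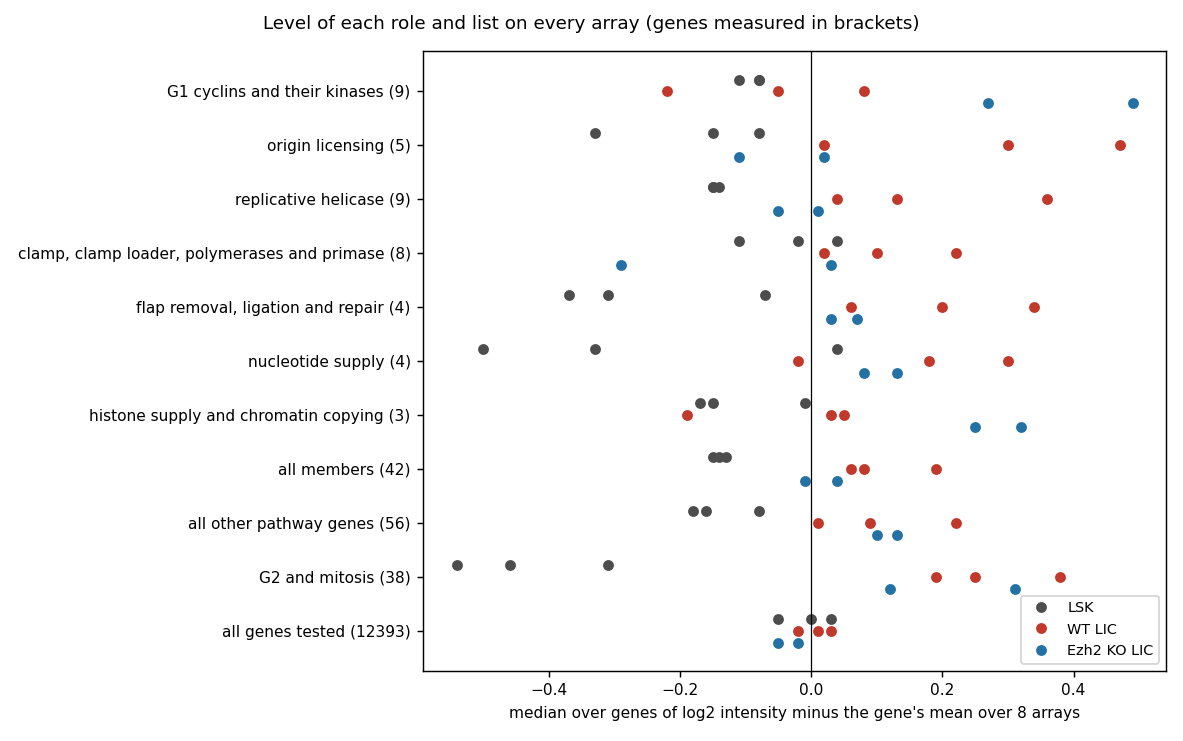
Median over the genes of a list of the log2 intensity minus each gene's mean over the 8 arrays (x axis), for each role and comparison list (rows, with the number of genes measured), with 1 point per array. G1/S and replication members lie between -0.15 and 0.19, and G2 and mitosis genes between -0.54 and 0.38.

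Brightness and change went together. In WT LICs against LSK cells, the 14 dimmest members, with means from 5.68 to 9.38, held all 4 calls and had a median difference of 0.50. The next 14, from 9.44 to 11.02, had a median of 0.30 and no call, and the 14 brightest, from 11.28 to 12.86, a median of 0.10 and no call. All genes in the same brightness ranges showed a like order in the share called, at 5.82%, 3.3% and 1.5%. The median size of difference, without its sign, was 0.39, 0.26 and 0.17 for all genes and 0.50, 0.30 and 0.14 for members. With the sign kept, the all-gene medians were -0.06, 0.04 and 0.04, so the upward direction of the dim members was not shared by all genes.

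Probe sets of a gene bear on this. Of 21 members with more than 1 probe set above background, every dimmer probe set moved higher than the brightest for 15 in WT LICs against LSK cells. Rrm2 was the 1 member whose dimmer probe sets were called. Its brightest probe set carries the suffix x, which Affymetrix gives to probes that may bind related sequences, and it differed by 0.49. A second was at 8.30, 8.11 and 8.41 in LSK cells, at 9.63, 9.58 and 9.24 in WT LICs and at 9.77 and 9.88 in Ezh2 KO LICs. It differed by 1.21 between WT LICs and LSK cells (SE 0.16, adjusted p = 0.0149 over all probe sets). The dimmest was at 6.94, 7.28 and 7.22, at 9.34, 8.79 and 9.04, and at 9.43 and 8.98 in the same order, and differed by 1.91 (SE 0.21, adjusted p = 0.00669). Both of these also stood higher in Ezh2 KO LICs than in LSK cells, by 1.56 and 2.06 (adjusted p = 0.00957 and 0.00831). By its 2 dimmer probe sets, then, Rrm2 was 1.21 to 1.91 higher in WT LICs, while the probe set chosen by brightness did not pass. The chosen probe sets of Fen1 and Cdk4 carry the suffix x too. Between WT LICs and LSK cells, the other probe set of Fen1 differed by 0.45 against 0.17 for the chosen one. Those of Cdk4 differed by 0.07 and 0.05 against 0.10, and none of these was called.

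The second probe set of Exo1 differed by 1.48 between WT LICs and LSK cells, in the direction of the first, with an SE of 0.48 (adjusted p = 0.15). That of Mcm10 differed by 0.95 (adjusted p = 0.054), and the dimmer probe set of Uhrf1 by 0.64 (adjusted p = 0.155). Orc1 and Ccne1 were each read by 1 probe set. Probe sets differed in sign in this comparison for 6 of the 22 members with more than 1. For Cdt1 and Slbp, which are among them, the probe set of opposite sign was at or under background on every array. The rest were Ccnd1, Ccnd2, E2f1 and Tyms, with no probe set at or under background on every array. Their differences ran from -0.28 to 0.53 for Ccnd1, -0.28 to 0.10 for Ccnd2, -0.07 to 0.20 for E2f1 and -0.85 to 0.28 for Tyms.

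**Figure D5:**
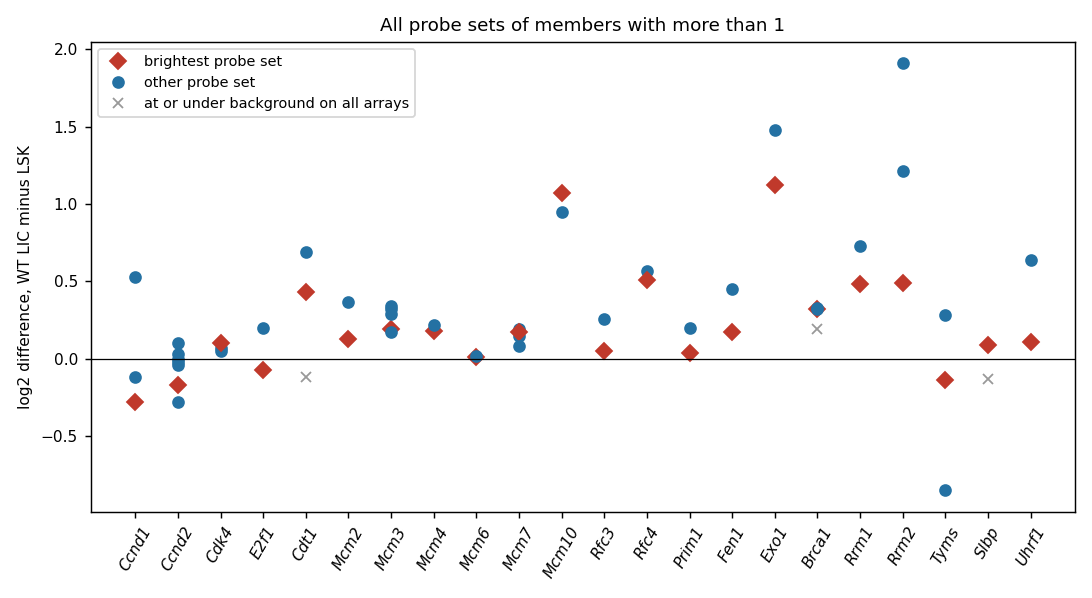
Log2 difference between WT LICs and LSK cells (y axis) for every probe set of the 22 members with more than 1 (x axis). Diamonds mark the brightest probe set, circles the others and crosses those at or under background on all arrays; for Rrm2 the circles stand at 1.21 and 1.91, above the diamond at 0.49.

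Other genes of the pathway, 68 listed and 56 measured, had calls in both directions. In WT LICs against LSK cells 2 rose, 2 fell and 52 did not pass, where 1.27% of all genes were called higher and 2.15% lower, with a median of 0.28. Recql4, a helicase that takes part in replication initiation, was at 5.32, 5.86 and 5.67 in LSK cells and at 6.92, 7.12 and 6.62 in WT LICs, and rose 1.27 (adjusted p = 0.0461). Pold2, an accessory subunit of polymerase delta, rose 0.80 (adjusted p = 0.0437), whereas Pold4, its smallest subunit, fell by 0.92 (adjusted p = 0.0322). Rbl2, which encodes the retinoblastoma relative p130 of quiescent cells, was at 8.37, 8.59 and 8.63 in LSK cells and at 7.27, 7.64 and 7.85 in WT LICs, and fell by 0.94 (adjusted p = 0.0379).

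None of the 56 was called between Ezh2 KO and WT LICs or between Ezh2 KO LICs and LSK cells by limma. At an unadjusted p under 0.05 there were 7 and 17, or 12.5% and 30.4%, against 11.1% and 19.2% of all genes. The smallest p-values between Ezh2 KO and WT LICs were those of E2f5, Timeless, Recql4 and Pole4, with differences of 1.00, -0.56, -0.86 and 0.48 (adjusted p from 0.276 to 0.373). Against LSK cells they were those of Dna2, Rpa3, Pold4 and Asf1b, with differences of 1.08, 0.67, -0.76 and 0.90 (adjusted p from 0.0542 to 0.0766).

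G2 and mitosis genes, the cell cycle genes next in time, are set beside the members. Of 38 measured, 9 were called higher in WT LICs, with a median of 0.67 against 0.19 for the G1/S and replication members, and 4 in Ezh2 KO LICs, with medians of 0.70 and 0.17. The shares of all genes called higher were 1.27% and 1.61%. WT LIC arrays were above the LSK arrays without overlap for 30 of these 38, as for 13.5% of all genes. Neither list had a call between Ezh2 KO and WT LICs. The difference between the lists was described and not tested.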

How the data were processed

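The authors deposited linear intensity values for 22690 probe sets on 8 arrays, and the submitters' processing notes name RMA. No version or further step is stated there. Values ran from 1.94 to 19343.1, and each was turned into log2 without a pseudocount, as planned for linear values. Control probe sets (64), those with several symbols (691) and those not listed in the annotation (1555) entered no test. Of 20380 with 1 symbol, 20351 matched RefSeq (GRCm38.p6) by gene number, giving 12393 genes. Background was 4.01, the highest mean of 27 unspiked bacterial control probe sets.

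All groups were fitted together in limma 3.58.1 (R 4.3.3, lmFit and eBayes, group as the only term, 2-sided), with p adjusted by Benjamini-Hochberg over all genes and called under 0.05. Exact permutation tests of single genes were not used, since so few arrays cannot reach that threshold. The scripts were tested on simulated data. The number of arrays limits the precision, and since no batch is given, a batch effect and a group effect cannot be told apart. Where animals are not named, p-values measure the spread between these samples.

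Members and lists were chosen with earlier results of these data known. Values on every array are given for members that were called, that differed by 1 or more without overlap, or that had the 5 highest or lowest moderated t in a comparison. Other pathway genes are named where called or among the 4 smallest p. Alternatives were a filter on dim genes, other scalings, priors and weights, fewer groups, the repeat number as a block, other summaries of probe sets, and each array left out. Promoters come from RefSeq. Figures were drawn with matplotlib 3.10.9.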

Additional observations from a re-analysis of the deposited data

How the results depend on the processing

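Between Ezh2 KO and WT LICs the count of called members was 0 under each alternative. Against LSK cells, a fit of the compared groups alone called 2 members in WT LICs (from 4) and 1 in Ezh2 KO LICs (from 2). Leaving out 1 array gave 2 to 3 members in WT LICs, 0 to 2 in Ezh2 KO LICs and 0 to 0 between LICs. The repeat number as a block gave 3 members in WT LICs and 0 in Ezh2 KO LICs against LSK cells. Deviations of arrays of the same number from their group means had r = -0.051, -0.017 and -0.019 for LSK cells and WT LICs, -0.02 and -0.014 for LSK cells and Ezh2 KO LICs, and 0.145 and 0.019 for the LICs. The deviations of 2 arrays from their own mean mirror each other, so these r cannot decide whether the numbers pair arrays. The numbers were left out of the main fit because the labels do not say that they pair samples. The dim-gene filter and the other scalings left 4 and 2 members. Array weights called 5 in WT LICs, Cdc45 among them, and the mean of all probe sets called 5 and 3. Rrm2 was gained in both, and in Ezh2 KO LICs Uhrf1 was gained (adjusted p = 0.042) and Exo1 lost (0.0718). Called differences kept their direction throughout. Centring arrays on their medians moved the median of all genes from 0.02 to 0.15 and that of the members from 0.19 to 0.33 in WT LICs against LSK cells, so the members stood 0.18 above all genes under both scalings. Over the alternatives, all-gene calls ranged from 176 to 917 (424 as reported), 25 to 146 (79) and 118 to 643 (430).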
